A study of Mus musculus with 15 samples.

Results

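The measurements described here are the differences between the response of hepatocytes and the response of biliary cells to DDC, a porphyrinogenic diet, in sorted mouse liver cells. The difference was taken for each gene as the change from untreated to DDC hepatocytes minus the change from untreated to DDC biliary cells. It used 12 of the 15 RNA-seq libraries of the study, 3 for each of the 4 groups, and 13905 of the 24493 genes listed, namely those with a TPM (a transcript abundance normalised to gene length and library total) of at least 1 in at least 3 of 15 libraries. The members are the genes that responded in 1 cell type and not in the other, or in opposite directions. Cells were sorted straight from the liver and were not cultured. All mice, untreated mice included, had received AAV-TBG-Cre at the age of 4 weeks to label cells; the TBG promoter drives Cre in hepatocytes. At 5 weeks the treated mice were switched to DDC chow, which they kept for 4 weeks. The groups are named after their labels: untreated hepatocytes (Untreat.Hep), DDC hepatocytes (DDC.Hep), untreated biliary cells (Untreat.Bil) and DDC biliary cells (DDC.Bil). The other group, cells labelled reprogrammed from DDC mice (DDC.Rep), is outside the contrast. The sort markers, the strain and the number of animals behind each library were not given in the sources used here. P-values therefore measure only the spread between these libraries, which may be technical.

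DDC (3,5-diethoxycarbonyl-1,4-dihydrocollidine) blocks heme synthesis, so that porphyrin accumulates and plugs small bile ducts. Biliary epithelial cells line those ducts, and in cholestatic injury they proliferate, secrete chemokines and remodel the matrix around them, which is known as the ductular reaction. Hepatocytes carry out metabolism and make plasma proteins, and in the same injury some of them are known to switch on genes of biliary epithelium, with YAP, Notch and TGF-beta among the pathways studied for it.

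The labels of the cell types were checked against defining markers, in TPM scaled between libraries by a median ratio. Albumin (Alb) was at 102951, 91348 and 104120.0 in untreated hepatocytes and at 25702, 20245 and 20898 in untreated biliary cells, so transcripts of this hepatocyte gene were abundant in the biliary libraries too. The ductal keratin Krt19 was at 364, 371 and 573 in untreated biliary cells and at 0, 0.141 and 0.722 in untreated hepatocytes. Summed over 20 plasma protein genes, levels ran from 266856 to 299941 in untreated hepatocytes, 159502 to 292801 in DDC hepatocytes, 51897 to 69007 in untreated biliary cells and 25878 to 57428 in DDC biliary cells. Summed over 24 biliary markers, they ran from 62.6 to 75.3 in untreated hepatocytes, where 7 of the 24 were at 0 in every library, from 379 to 717 in DDC hepatocytes, and from 9703 to 14500.2 over the 6 biliary libraries. In bulk samples a change in the share of a cell type and a change in RNA per cell cannot be told apart. A table of TPM keeps no sequencing depth, so how deeply each library was sequenced is unknown.

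The responses of the cell types differed for 1168 of 13905 genes (8.4%). With limma on log2(scaled TPM + 1), a gene was called when its Benjamini-Hochberg adjusted p was under 0.05 and its change or difference was at least 1 on the log2 scale. The response was higher in hepatocytes for 687 genes (4.94% of those tested) and lower for 481 (3.46%). Of the 1168, 915 (6.58% of all tested) fell into 6 classes. They comprised 317 genes that rose in hepatocytes only (2.28%), 65 that fell in hepatocytes only (0.467%), 332 that rose in biliary cells only (2.39%) and 175 that fell in biliary cells only (1.26%). In opposite directions, 23 rose in hepatocytes and fell in biliary cells (0.165%), and 3 did the reverse (0.0216%). "Only" means that the response of the other cell type was not called while the difference itself was. A further 71 genes changed the same way by unequal amounts and 182 (1.31%) had no called response in either cell type; these are not described further. For genes listed at 0 in a group the size of a difference depends on the 1 added before taking logs. In TPM as deposited, without scaling, 299 genes rose and 20 fell in hepatocytes only. Taken alone, the hepatocyte response was called for 917 genes that rose (6.59%) and 615 that fell (4.42%), and the biliary response for 790 (5.68%) and 659 (4.74%). Nearest the limits, Gm9855 lay just inside and Ttc39b just outside a difference of 1 in size, and the adjusted p was 0.0498 for Ptpn14 inside and 0.0503 for Lrmda outside.

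**Figure D1:**
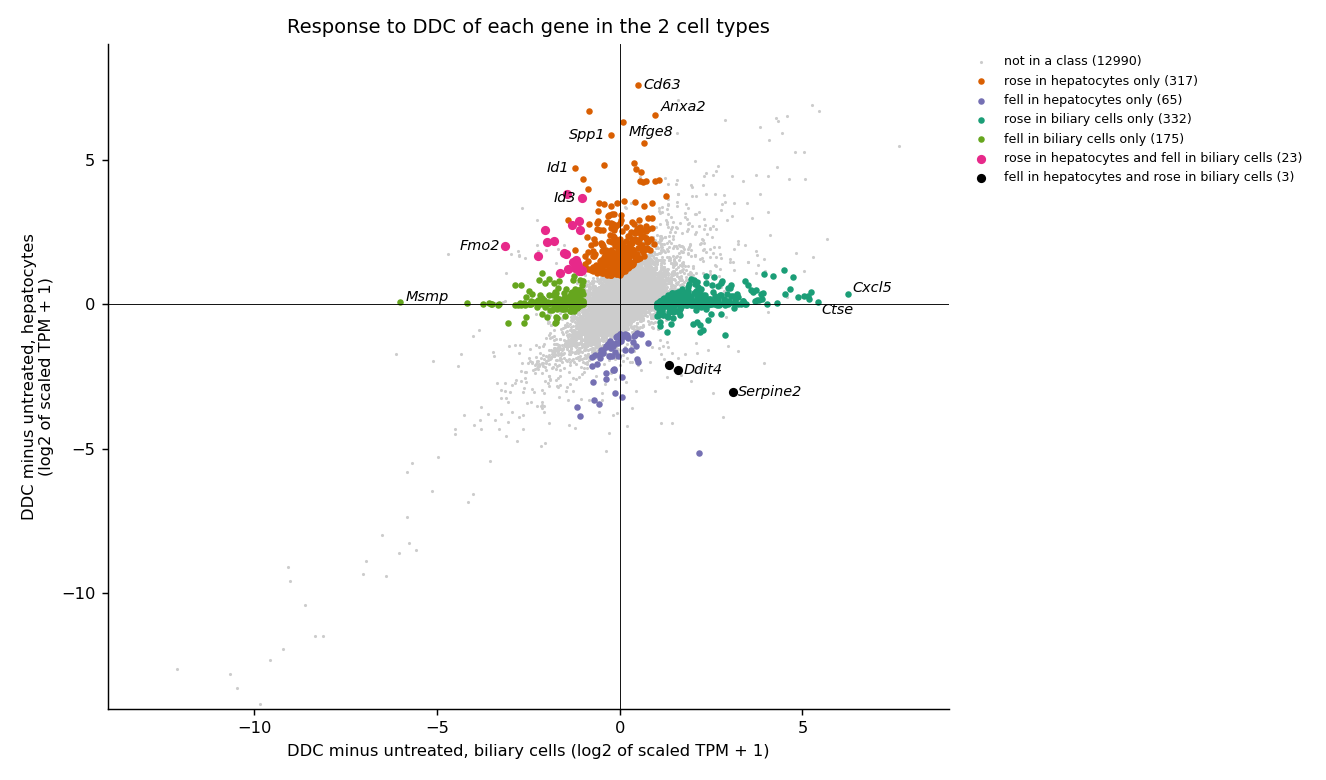
Each point is 1 of 13905 genes, placed by its change from untreated to DDC in biliary cells (horizontal axis) and in hepatocytes (vertical axis), both as differences of mean log2(scaled TPM + 1) over 3 libraries a group; colours mark the 6 classes. The 317 orange and 332 green points lie along the vertical and horizontal axes, and the 26 genes (23 and 3) called in opposite directions lie in the upper left and lower right quadrants.

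Of the protein-coding genes at 10 scaled TPM or more, without overlap with another gene, that rose in hepatocytes only, Cd63 had the largest difference. It encodes a tetraspanin of late endosomes and exosomes (chromosome 10, 128900989 to 128912822, GRCm38). Cd63 was at 1.39, 0.985 and 1.86 scaled TPM in untreated hepatocytes and at 780.0, 290.5 and 425 in DDC hepatocytes, against 271, 284 and 318 in untreated and 516, 336 and 401 in DDC biliary cells. All untreated hepatocyte libraries were under 2, while DDC hepatocyte replicates 2 and 3 lay within the range of the biliary libraries and replicate 1 above it. The hepatocyte change of Cd63 was 7.59 ± 0.30 (log2 ± SE), the biliary change 0.50 ± 0.30, and the difference 7.09 ± 0.43 (adjusted p = 9.41e-07). Mfge8, a secreted glycoprotein that bridges phosphatidylserine on dying cells to the integrins of phagocytes (chromosome 7, 79133768 to 79149060), was at 1.42, 1.36 and 2.16 in untreated and 265, 169 and 201 in DDC hepatocytes. In biliary cells Mfge8 was at 366, 391 and 452 untreated and 361, 506 and 435 under DDC, with overlapping libraries. For Mfge8 the responses differed by 6.22 ± 0.25 (adjusted p = 3.87e-08).

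Spp1, which encodes the secreted phosphoprotein osteopontin of bile duct cells, was at 5.91, 8.27 and 4.2 in untreated and 440.4, 253 and 563 in DDC hepatocytes. Spp1 stayed far higher in biliary cells, at 9856 ± 727 (SD, n = 3) untreated and 8630.3 ± 2521 under DDC, so the hepatocytes reached only a small part of the biliary level. Its responses differed by 6.08 ± 0.53 (adjusted p = 1.56e-05). Anxa2, a calcium-dependent membrane-binding annexin, was at 0.357, 2.21 and 1.29 in untreated and 380.4, 86.1 and 234 in DDC hepatocytes, and at 238 ± 34.8 and 466 ± 48.6 in the biliary groups. Responses of Anxa2 differed by 5.56 ± 0.63 (adjusted p = 1.03e-04). Id1, an inhibitor of basic helix-loop-helix factors and a classic BMP target, was at 3.07, 2.22 and 2.83 in untreated and 33.7, 149.8 and 176 in DDC hepatocytes. In biliary cells Id1 went the other way without passing the test, from 256, 159.5 and 252 to 127, 69 and 88, a change of -1.24 ± 0.47 (adjusted p = 0.0703). The difference for Id1 was 5.96 ± 0.67 (adjusted p = 9.32e-05).

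Other leading genes of this class were Prom1, a pentaspan membrane protein used as a progenitor marker, with a difference of 5.32, and Wfdc3, a member of a family of protease inhibitors, with 5.24. Wfdc3 was listed at 0 in all 3 untreated hepatocyte libraries and at 29.7, 19.3 and 34.6 in the DDC ones. Serpinb6a, an intracellular serpin, rose from 2.6 ± 0.489 to 176 ± 57 in hepatocytes (SD, n = 3) and differed by 4.92; it has close paralogs, so its reads could be split among them. Hes1, a repressor induced by Notch, rose from 2.97 ± 0.47 to 52.1 ± 35.4, and Sox4, a transcription factor of progenitor cells, from 0.0445 ± 0.0392 to 8.12 ± 2.71. Sox9, the transcription factor that marks bile duct cells, rose from 2.76 ± 0.249 to 9.69 ± 3.6 in hepatocytes and remained far below the 98.6 ± 5.12 of DDC biliary cells. Ccnd1, cyclin D1, rose from 19.4 ± 8.45 to 129 ± 67.9. The growth factor ligands Hbegf and Btc, both of which bind the EGF receptor, differed by 2.67 and 1.91, and the cilium-associated RNA-binding protein gene Bicc1 by 3.60. That of Hbegf was not called after quantile normalization or with a pseudocount of 5.

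Genes already abundant in hepatocytes also belonged to this class. The keratins Krt8 and Krt18, which pair into the filaments of hepatocytes and aggregate in the Mallory-Denk bodies known from DDC, were at 407 ± 82.5 and 308 ± 84.7 in untreated and 2082 ± 764 and 1393 ± 405 in DDC hepatocytes. In biliary cells Krt8 went from 1006 ± 201 to 1622 ± 118 and Krt18 from 764 ± 151 to 1278 ± 96.3; these biliary changes were not called. The differences were 1.59 ± 0.39 for Krt8 and 1.40 ± 0.35 for Krt18 (adjusted p = 0.0187 and 0.0198). Neither was called after quantile normalization, nor without untreated biliary replicate 3 or untreated hepatocyte replicate 1, and Krt18 also not without untreated hepatocyte replicate 2. Slc48a1, a heme transporter of lysosomes, was at 35.3, 38.3 and 38.6 and then 109, 63.5 and 76.9 in hepatocytes, and at 47.2 ± 3.81 and 47.7 ± 6.85 in biliary cells. The copper-binding ferroxidase Cp, ceruloplasmin, rose from 868 ± 62 to 2413 ± 964 in hepatocytes and was at 1148 ± 108 and 1125 ± 191 in biliary cells. Cp lost its call without DDC biliary replicate 3, without untreated biliary replicate 1 or 2, and without untreated hepatocyte replicate 1 or 3. Slc48a1 lost it after quantile normalization and without DDC hepatocyte replicate 1. The heme synthesis genes Fech and Alas1 showed no called difference, at -0.17 and 0.29 (adjusted p = 0.611 and 0.824).

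**Figure D2:**
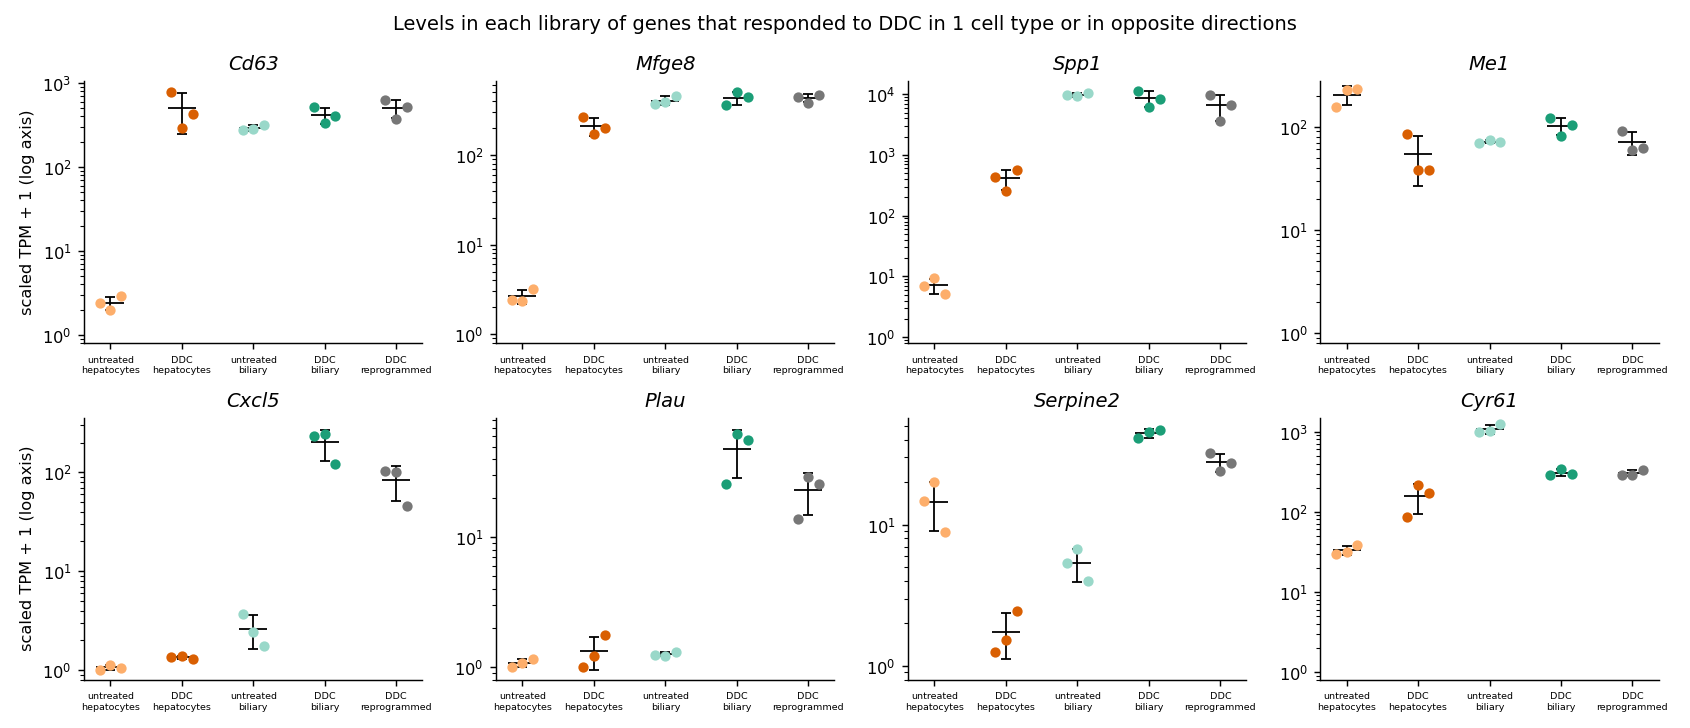
Scaled TPM plus 1 on a log axis in each of the 3 libraries of the 5 groups (points), with the group mean (horizontal mark) and SD (bars, shortened at the axis foot), for 8 genes. Cd63, Mfge8 and Spp1 rise in hepatocytes only, Me1 falls in hepatocytes only, Cxcl5 and Plau rise in biliary cells only, and Serpine2 and Cyr61 move in opposite directions in the cell types.

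Most genes that rose in hepatocytes only had higher levels in biliary cells from the start. Over the 317 genes the median level was 1.49 scaled TPM in untreated hepatocytes, 9.74 in DDC hepatocytes, 21.6 in untreated and 23.1 in DDC biliary cells. The mean in DDC hepatocytes was below both biliary groups for 214 genes and above the DDC biliary mean for 93. In untreated hepatocytes 136 of the 317 were under 1 scaled TPM, and 15 were listed at 0 in all 3 libraries. For 230 genes the biliary change was under 0.5 in size.

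Markers of biliary epithelium moved with this class, and each gene was measured against its biliary level. Epcam, an adhesion molecule of bile duct cells, went from 0.162 to 1.92 in hepatocytes, an increase of 0.368% of its mean in DDC biliary cells. The same share was 0.217% for Krt19, 0.14% for Krt7, 3.15% for Cldn4, a tight junction protein, and 31.0% for Elf3, an epithelial transcription factor. In DDC hepatocytes Elf3 was at 36.0, 3.61 and 11.7 and Cldn4 at 24.9, 4.69 and 9.75, both highest in replicate 1. The difference between the responses was called for neither. Prom1 was lowest in that replicate, at 7.91, 28.6 and 34.8. Over the 24 biliary markers the share ran from -2.85% (Onecut2) to 35.3% (Prom1), with a median of 1.45% and quartiles of 0.286% and 5.34%, and 6 of the 24 belong to the class. Over the 317 genes the median was 39.4% and the quartiles 19.1% and 85.2%, values that the choice of genes by their rise in part fixes. For Cd63 it was 119%, for Mfge8 48.3%, for Anxa2 49.9% and for Spp1 4.78%. Summed markers of macrophages ran from 21.4 to 43.0 in untreated and 40.3 to 62.1 in DDC hepatocytes. Those of stellate cells and fibroblasts ran from 1.41 to 5.5 and 15.6 to 24.2, and those of neutrophils from 4.78 to 5.99 and 13.2 to 19.8. The part of these other cells in the class was not tested.

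**Figure D3:**
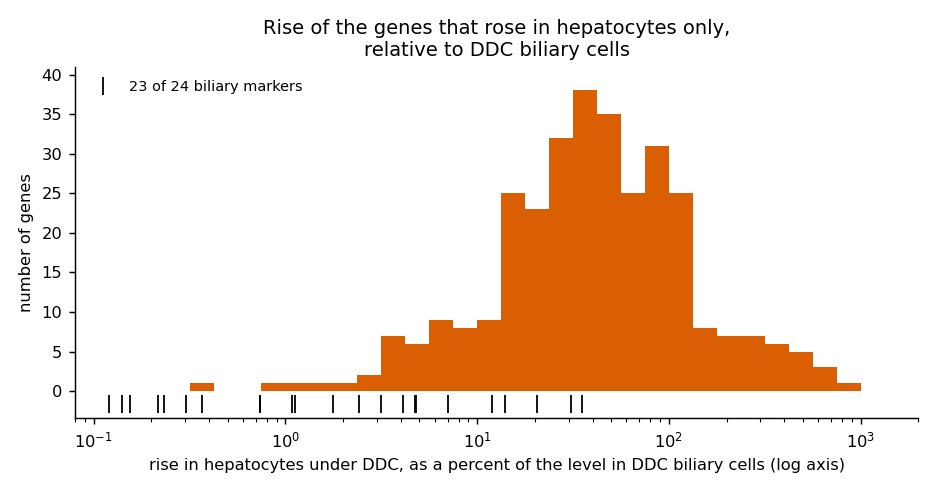
Number of genes (vertical axis) by the size of the hepatocyte rise as a percent of the mean level in DDC biliary cells (horizontal log axis), for the 317 genes that rose in hepatocytes only. Ticks under the bars mark 23 of 24 biliary markers, from 0.12% to 35.3%, with Onecut2 below 0 left out; 280 of the 317 genes lie above 10%.

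The 65 genes that fell in hepatocytes only had a median of 11.5 scaled TPM in untreated and 2.05 in DDC hepatocytes, and of 4.05 and 4.81 in the biliary groups. Me1, the cytosolic malic enzyme that supplies NADPH and a textbook target of NRF2, was at 154, 225 and 231 in untreated and 84, 37 and 37.3 in DDC hepatocytes. In biliary cells Me1 was at 68.3, 72.6 and 70.6 and then 119.9, 80.2 and 103, a change that was not called. For Me1 the responses differed by -2.51 ± 0.41 (adjusted p = 0.00142). Tsc22d1, a leucine zipper protein induced by TGF-beta, was at 246, 109 and 236 in untreated and 32.6, 23.7 and 40.9 in DDC hepatocytes, and at 242 ± 4.6 and 254 ± 21.4 in the biliary groups. It was about level in biliary cells and differed by -2.57 ± 0.40 (adjusted p = 0.00109). Susd4, a membrane regulator of complement, fell from 16.6, 13.9 and 3.93 to 0.0437, 0.328 and 0.146 in hepatocytes, with a difference of -3.29. Tfrc, the transferrin receptor that takes iron into cells, fell from 32.3, 26.2 and 39.7 to 17, 10.9 and 7.75 in hepatocytes and was at 18.9 ± 4.16 and 25.6 ± 1.58 in biliary cells, a difference of -1.87 ± 0.35 (adjusted p = 0.00339). Tfrc is also on the erythroid marker list, whose sum went from between 141 and 172 to between 27 and 43.6 in hepatocytes. Most of that fall was in Alas2, the erythroid enzyme of heme synthesis, at 137, 111 and 111 and then 20.3, 9.87 and 12.9. The globin Hba-a1 was at 0, 1.81 and 2.6 and then 4.18, 5.69 and 2.75. Nrep, a small regulator of neuronal regeneration, Slc25a45, a mitochondrial carrier, and Mapk15, an atypical MAP kinase, differed by -2.93, -2.13 and -2.21. Hspa1a, an inducible heat shock protein, and Mup8, a major urinary protein, differed by -2.88 and -2.78; both have near-identical copies, so their values are uncertain, and neither difference was called in TPM as deposited. Hspa1a also lost its call after quantile normalization and in 6 of the 12 fits without 1 library, and Mup8 with a pseudocount of 0.1 and with sample weights.

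The genes that rose in biliary cells only were mostly near 0 in hepatocytes. Both hepatocyte means were under 1 scaled TPM for 271 of the 332, and the class medians were 0.0441 and 0.147 in hepatocytes against 0.796 and 7.25 in biliary cells. Cxcl5, a chemokine that attracts neutrophils (chromosome 5, 90759360 to 90761624), was at 2.68, 1.41 and 0.766 in untreated and 234, 244 and 119.7 in DDC biliary cells. In hepatocytes Cxcl5 was at 0, 0.127 and 0.0583 and then 0.371, 0.386 and 0.28, all of them under 1. For Cxcl5 the responses differed by -5.91 ± 0.49 (adjusted p = 1.10e-05). Ccl20, the ligand of the receptor CCR6, rose from 0.142, 0 and 0.0763 to 63.7, 15.4 and 28.6 in biliary cells and was listed at 0 in untreated and at 0, 0.37 and 0.239 in DDC hepatocytes. Tnf, the inflammatory cytokine, rose from 0.89, 0.99 and 0.747 to 28.3, 26.6 and 27.8 in biliary cells, and its hepatocyte mean was 0.32 under DDC. The differences were -4.63 ± 0.76 for Ccl20 and -3.55 ± 0.19 for Tnf (adjusted p = 0.00154 and 3.36e-07).

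Proteases and matrix genes were also in this class. Plau, the urokinase that activates plasminogen (chromosome 14, 20836660 to 20843385), was at 0.243, 0.215 and 0.301 in untreated and 24.7, 61.1 and 55.1 in DDC biliary cells. In hepatocytes Plau was at 0, 0.0765 and 0.154 and 0, 0.227 and 0.756. For Plau the responses differed by -4.89 ± 0.48 (adjusted p = 3.33e-05). Ctse, the aspartic protease cathepsin E, was at 0.167, 0.153 and 0.112 and then 37.3, 38.4 and 75.5 in biliary cells, and at most 0.111 on average in hepatocytes. Adam8, a membrane metalloprotease, rose from 0.775 ± 0.193 to 21.4 ± 7.67, and Ltbp2, a microfibril protein of the latent TGF-beta binding family, from 0.288 ± 0.172 to 49 ± 14.7. Itgb6, the integrin chain that activates latent TGF-beta, rose from 6.45 ± 0.935 to 35.5 ± 9.29, and Thbs1, thrombospondin 1, from 12.3 ± 4.48 to 88.7 ± 23.9. In hepatocytes Thbs1 was at 0.0239 ± 0.022 and then 0.708 ± 0.312, a change of 0.72 ± 0.24 (adjusted p = 0.0414) that lay under the limit of 1. With a pseudocount of 0.1 its difference was -0.23 (adjusted p = 0.855), against -2.04 as reported. Lamb3, a laminin chain of epithelial basement membranes, rose from 6.73 ± 3.37 to 63.5 ± 10.8 and was at 1.15 and 0.935 in hepatocytes. Summed markers of stellate cells and fibroblasts ran from 126 to 140.3 in untreated and from 397 to 648 in DDC biliary cells; their part in these genes was not tested. Most of that sum was Rgs5, a gene of pericytes and stellate cells, at 107, 109 and 104 and then 380.4, 449 and 557. Other members of the list were far lower in the biliary libraries. Des was at 0.222, 0.102 and 0.253 and then 0.198, 0.0297 and 0.416, and Pdgfrb at 0.189, 0.309 and 0.203 and then 0.705, 0.519 and 2.07. Of 10 listed genes tested, 4 rose and 1 fell in biliary cells. The matrix gene Dcn, which marks fibroblasts, was at 10.3, 9.96 and 5.73 and then 3.33, 12.5 and 43.5.

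Further genes that rose in biliary cells only included a receptor and regulators of the cell cycle. Gabrp, a GABA receptor subunit, rose from 5.07 ± 5.14 to 162 ± 36.9 and differed by -4.75. Cdkn2a and Cdkn2b, neighbouring genes for inhibitors of cell cycle kinases, rose to 10.3 ± 3.18 and 22.5 ± 3.96 in DDC biliary cells from 0.0657 ± 0.0702 and 1.2 ± 0.343. Cdkn2b was not called with a pseudocount of 0.1. In DDC hepatocytes they were at 0.0709 ± 0.123 and 1.91 ± 1.39, and the differences were -3.27 ± 0.30 and -2.62 ± 0.48. Anxa1, an annexin, rose from 2.34 ± 1.24 to 58.5 ± 15.1 in biliary cells. In hepatocytes Anxa1 was at 0.158 ± 0.0975 and then 1.28 ± 0.358, a change of 0.97 ± 0.27 (adjusted p = 0.0191) just under the limit of 1.

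The 175 genes that fell in biliary cells only had a median of 12.3 scaled TPM in untreated and 2.91 in DDC biliary cells, and 113 were under 1 in both hepatocyte groups. Msmp, a small secreted protein, had the highest difference of the genes named from this class, 6.07 ± 0.41 (adjusted p = 2.53e-06). It was at 87.6, 105 and 39.6 in untreated and 0.301, 0.0848 and 0 in DDC biliary cells, and at or near 0 in hepatocytes. Lamc3, a laminin gamma chain, was at 106, 93.3 and 91.7 and then 9.96, 2.28 and 3.43 in biliary cells. Atoh8, a basic helix-loop-helix factor, fell from 65.1, 51.2 and 61.1 to 6.29, 9.31 and 6.19 in biliary cells. In hepatocytes Atoh8 was at 22.1, 15.8 and 17.1 and then 12.7, 38.6 and 51.4, so that it ended higher in hepatocytes. Its responses differed by 3.55 ± 0.63 (adjusted p = 0.0025). Slc2a2, the glucose transporter of hepatocytes, fell from 149 ± 16.9 to 64.1 ± 29 in the biliary libraries, and was at 190.2 ± 50.7 and 341 ± 109 in hepatocytes. Its difference was no longer called in 6 of the 12 fits that left out 1 library (DDC biliary replicates 1 and 3, DDC hepatocyte replicate 2, untreated biliary replicate 3, untreated hepatocyte replicates 1 and 2). The summed plasma protein genes given above were lower than in every untreated biliary library in 2 of the 3 DDC ones, and the part of hepatocyte RNA in the fall of Slc2a2 was not tested. Prox1, a transcription factor of hepatocytes and lymphatic endothelium, fell from 105 ± 19.1 to 35.4 ± 11.5, a difference no longer called in 8 of the 12 fits without 1 library, and Ltbp4, a binding protein of latent TGF-beta, fell from 20.2 ± 5.46 to 3.73 ± 1.33. Reln, the matrix protein reelin and a stellate cell marker, fell from 13.4 ± 3.57 to 2.16 ± 0.954. The summed stellate markers, Reln among them, were higher under DDC, mostly through Rgs5. The part of stellate cells in the fall of Reln was not tested.

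Of all genes tested, 3 fell in hepatocytes and rose in biliary cells; without DDC hepatocyte replicate 1 or untreated biliary replicate 3 there were 5. Serpine2, a secreted inhibitor of thrombin, urokinase and plasmin (chromosome 1, 79794197 to 79861180), was at 13.7, 19.2 and 7.95 in untreated and 0.261, 0.526 and 1.45 in DDC hepatocytes. In biliary cells Serpine2 was at 4.32, 5.73 and 2.97 untreated and 39.9, 44.7 and 45.8 under DDC. The order of the cell types was reversed by treatment. The changes were -3.04 ± 0.30 and 3.09 ± 0.30, and the difference -6.13 ± 0.43 (adjusted p = 2.98e-06). Ddit4, an inhibitor of mTORC1 induced by stress, was at 114, 119 and 193 and then 15.3, 67.5 and 20.4 in hepatocytes. In biliary cells Ddit4 was at 38.7, 32.6 and 55.9 and then 88.3, 145 and 162, so the levels changed places (difference -3.87 ± 0.65, adjusted p = 0.00169). Lama3, the laminin alpha chain that pairs with Lamb3, fell from 4.09 ± 0.676 to 0.191 ± 0.144 in hepatocytes and rose from 4.15 ± 0.857 to 12.3 ± 3.32 in biliary cells (difference -3.44 ± 0.27, adjusted p = 7.29e-06).

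The 23 genes that rose in hepatocytes and fell in biliary cells went from a median of 1.14 to 8.99 scaled TPM in hepatocytes and from 48.5 to 15.9 in biliary cells. Their number was 15 without DDC biliary replicate 2 and 13 without replicate 3. Id3, like Id1 an inhibitor of basic helix-loop-helix factors, was at 20.5, 21.5 and 14.1 in untreated and 137, 265 and 424 in DDC hepatocytes. In biliary cells Id3 was at 189, 121 and 187 and then 88, 81.9 and 66.7. The DDC hepatocytes thus lay above the DDC biliary cells, and the responses differed by 4.73 ± 0.51 (adjusted p = 6.75e-05). Prelp, a leucine-rich proteoglycan of connective tissue, was at 0.0299, 0.215 and 0.0721 and 10.3, 16.1 and 18.4 in hepatocytes and at 33 ± 2.16 and 13.3 ± 9.56 in biliary cells. Fmo2, a flavin monooxygenase, was at 145, 144 and 150.1 and then 22.7, 11.9 and 14.4 in biliary cells, and at 2.28 ± 1.54 and 11.9 ± 4.68 in hepatocytes. The DDC groups were closer together than the untreated ones for both genes, with differences of 5.27 ± 0.63 and 5.14 ± 0.51. Abcb1a, the drug efflux pump P-glycoprotein, was at 0.967, 1.24 and 2.12 and 14, 21.8 and 7.36 in hepatocytes and at 48.2, 52.9 and 49.6 and 16.8, 11.8 and 7.43 in biliary cells, again ending close together (difference 4.61 ± 0.49, adjusted p = 6.63e-05). Itih5, a hyaluronan-binding protein, Cavin2, a coat protein of caveolae, and Lamb2, a laminin beta chain, differed by 4.14, 4.03 and 3.29.

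Targets of YAP and TAZ, co-activators that bind DNA through TEAD factors, included members of both kinds. Cyr61, a secreted matricellular protein, was at 28.5, 30.5 and 37.3 in untreated and 86.1, 215 and 171 in DDC hepatocytes, and at 986, 1007 and 1234 and 283, 340.0 and 293 in the biliary groups. Cyr61 rose in hepatocytes and fell in biliary cells, with a difference of 3.98 ± 0.36 (adjusted p = 1.93e-05). Ajuba, a LIM protein that restrains the kinases upstream of YAP, was at 4.47, 5.24 and 2.21 and then 17.7, 28.9 and 26 in hepatocytes and at 33.7 ± 6.97 and 40.1 ± 4.64 in biliary cells. Amotl2, an angiomotin that holds YAP at cell junctions, was at 9.74, 8.99 and 6.87 and then 15.5, 35.1 and 20.6 in hepatocytes and at 76.3 ± 13.2 and 50.2 ± 1.65 in biliary cells. Both rose in hepatocytes only, with differences of 2.11 ± 0.35 and 1.89 ± 0.32 (adjusted p = 0.00151 and 0.00192). Ctgf, a relative of Cyr61, rose in both cell types by 3.31 and 1.06, while Fjx1 and Axl rose in biliary cells only. Of 20 measured targets, 8 had a higher response in hepatocytes and 2 a lower one, and the median changes were 1.16 in hepatocytes and 0.25 in biliary cells. Over all genes tested those medians were 0.01 and -0.02, and 4.94% had a higher response in hepatocytes and 3.46% a lower one. Leaving out 1 of the 12 libraries at a time, 5 to 8 were higher and 0 to 2 lower, with 5 higher without DDC biliary replicate 1, untreated biliary replicate 3 or untreated hepatocyte replicate 3. With a pseudocount of 5, 4 were higher and 0 lower.

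The 250 bases before the RefSeq start (GRCm38.p6) of Cyr61, Ajuba, Amotl2, Id3 and Abcb1a, which rose together in hepatocytes, are shown because they hold the TEAD letters GGAATG, seen on the printed strand as CATTCC in capitals. The stretches are Cyr61 (chr3:145649986-145650235, minus strand), Ajuba (chr14:54577662-54577911, minus strand), Amotl2 (chr9:102717554-102717803, plus strand), Id3 (chr4:136143572-136143821, plus strand) and Abcb1a (chr5:8566841-8567090, plus strand).
Cyr61: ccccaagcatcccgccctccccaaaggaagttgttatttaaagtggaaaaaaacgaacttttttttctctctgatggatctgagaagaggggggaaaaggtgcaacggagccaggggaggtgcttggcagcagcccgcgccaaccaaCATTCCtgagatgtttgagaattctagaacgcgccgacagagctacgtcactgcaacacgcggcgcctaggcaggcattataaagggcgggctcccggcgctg
Ajuba: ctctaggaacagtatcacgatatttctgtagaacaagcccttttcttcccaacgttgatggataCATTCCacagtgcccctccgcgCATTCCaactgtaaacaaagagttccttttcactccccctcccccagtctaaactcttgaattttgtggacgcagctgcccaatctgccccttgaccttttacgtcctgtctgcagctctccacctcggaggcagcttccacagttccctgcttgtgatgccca
Amotl2: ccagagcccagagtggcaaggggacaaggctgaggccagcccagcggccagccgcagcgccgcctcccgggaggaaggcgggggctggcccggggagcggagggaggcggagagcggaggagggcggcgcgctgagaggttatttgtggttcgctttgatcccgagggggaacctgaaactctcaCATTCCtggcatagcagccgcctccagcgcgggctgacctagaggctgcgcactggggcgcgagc
Id3: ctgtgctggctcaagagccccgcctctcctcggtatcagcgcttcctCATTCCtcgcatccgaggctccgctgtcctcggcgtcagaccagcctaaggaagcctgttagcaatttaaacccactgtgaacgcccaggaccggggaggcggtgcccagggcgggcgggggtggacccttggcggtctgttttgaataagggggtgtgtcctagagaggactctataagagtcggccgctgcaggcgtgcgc
Abcb1a: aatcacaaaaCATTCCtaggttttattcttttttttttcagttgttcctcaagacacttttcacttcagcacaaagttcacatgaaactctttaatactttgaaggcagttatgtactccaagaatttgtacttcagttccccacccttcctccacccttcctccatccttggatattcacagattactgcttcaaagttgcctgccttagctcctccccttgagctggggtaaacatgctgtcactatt
Each of the 5 holds 1 match except Ajuba, which holds 2. Searched on both strands, GGAATG occurred in 11% of 13761 promoters of all genes tested, 1513 in number. It occurred in 7 of the 18 promoters (38.9%) available for 15 of the 23 genes that rose in hepatocytes and fell in biliary cells, 2 of them alternative starts of Upp1. In the classes of 1 cell type the share was 14.6% for rises and 9.84% for falls in hepatocytes only. It was 13% for rises and 14.9% for falls in biliary cells only. The reverse opposite class had GGAATG in 0 of 2 promoters. GGAATG was 1 of 6 motifs searched in every class, so its share is not a single look. In the 18 promoters the other motifs had 11.1% (AP-1), 16.7% (antioxidant response element), 16.7% (CCAAT), 5.56% (TATA) and 0% (HNF1). Over all genes tested these were 4.83%, 11.7%, 35.6%, 7.05% and 4.45%. A match is a description of these letters and shows no binding.

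Immediate early genes, which are transcribed within minutes of many stimuli, handling of tissue among them, had a higher response in hepatocytes than in biliary cells for 12 of 20 and a lower one for 0. Of all genes tested, 4.94% had a higher response in hepatocytes and 3.46% a lower one. At an unadjusted p under 0.05, limma gave 15 of the 20, against 25.2% of all genes tested. In biliary cells 11 of the 20 fell and 3 rose, and in hepatocytes 6 rose and 0 fell. Atf3, a stress-induced factor, was at 153, 269 and 635 in untreated and 38.1, 71 and 90.1 in DDC biliary cells, and at 5.05, 4.73 and 7.0 and 18.8, 16.7 and 23.4 in hepatocytes. Untreated biliary replicate 3 was the highest for Atf3 and for Fosb, a subunit of AP-1, which was at 52.3, 65.7 and 189 and then 18.5, 36.2 and 42.2 in biliary cells. Both moved in opposite directions in the cell types, with differences of 3.88 ± 0.59 and 3.20 ± 0.65 (adjusted p = 9.29e-04 and 0.00574). Fos went from 740.1 ± 226 to 293 ± 35.1 in biliary cells and was at 84.2 ± 18.5 and 83.2 ± 33.9 in hepatocytes, and Jun went from 616 ± 165 to 228 ± 37.1 against 143 ± 21.5 and 156 ± 23.5. Klf6, a zinc finger factor, was the member that rose in hepatocytes only, from 4.45, 5.67 and 3.96 to 50.4, 37 and 34. The median changes of the list were 0.49 in hepatocytes and -1.18 in biliary cells. Leaving out 1 of the 12 libraries at a time gave 8 to 13 higher responses, 8 in 9 of the 12 cases, and 0 lower in each case. It was also 8 with no filter on low genes and with only the 4 groups in the fit.

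**Figure D4:**
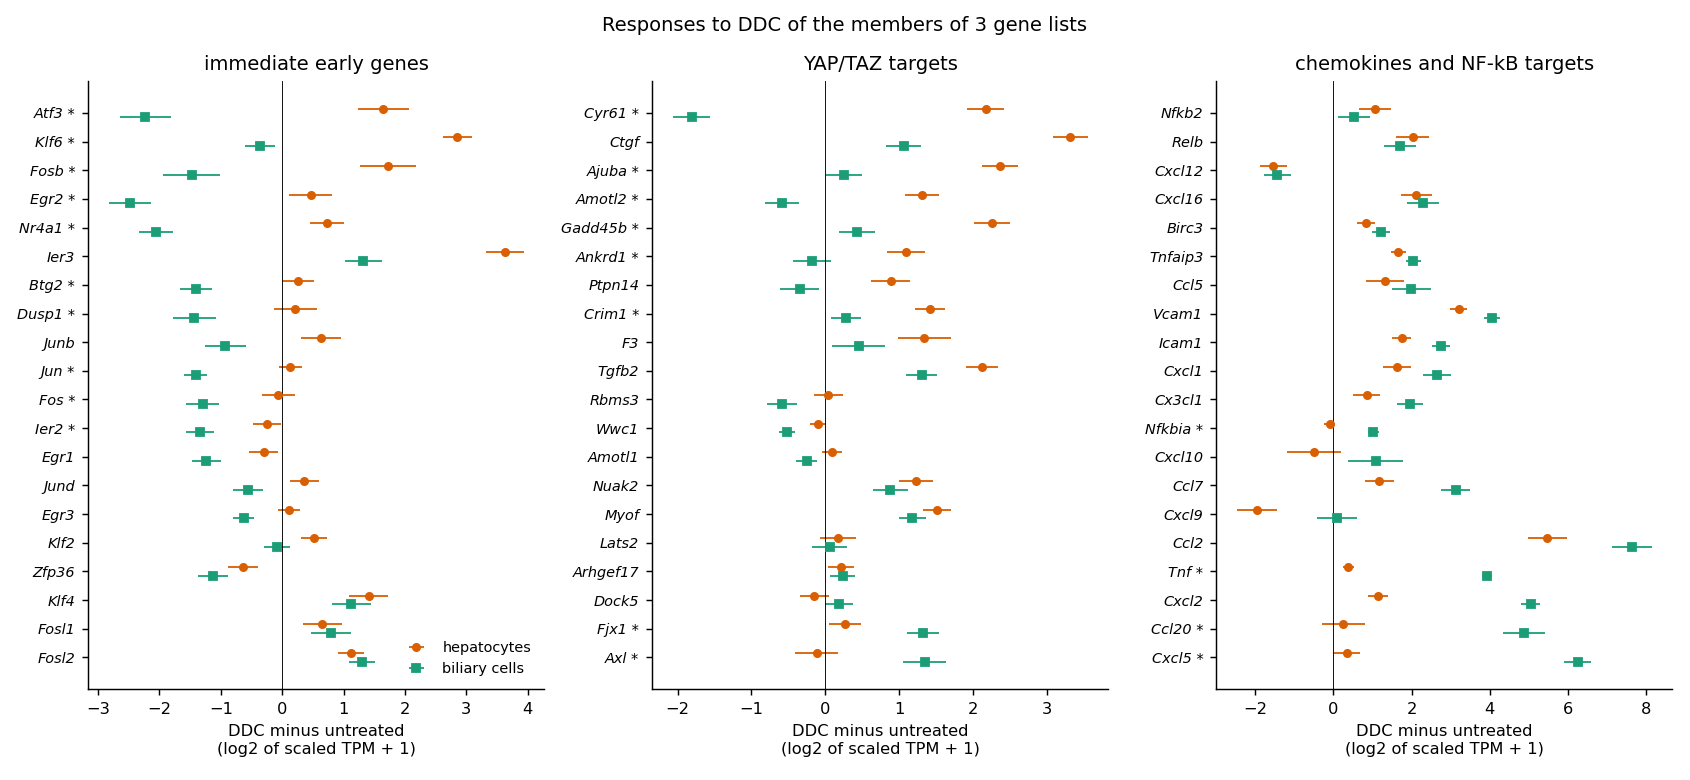
Change from untreated to DDC in log2(scaled TPM + 1) for each measured member of 3 gene lists, in hepatocytes (circles) and biliary cells (squares), with bars of 1 SE from limma; an asterisk marks members of the 6 classes. Immediate early genes lie to the left in biliary cells, YAP and TAZ targets to the right in hepatocytes, and chemokines and NF-kB targets farther to the right in biliary cells.

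Of all genes tested, 3.46% had a lower and 4.94% a higher response in hepatocytes. Chemokines and NF-kB targets responded more in biliary cells for 6 of 20 members and more in hepatocytes for 0. Members rose in both cell types in part: 16 rose in biliary cells and 9 in hepatocytes, with median changes of 2.17 and 1.10. Ccl20, Cxcl5, Tnf and Nfkbia, the NF-kB inhibitor, rose in biliary cells only. Nfkbia was at 91.1 ± 15.6 and then 185 ± 12.7 in biliary cells and at 79.1 ± 9.6 and 73.6 ± 5.6 in hepatocytes. Ccl2, the monocyte chemokine, rose in both, from 0.82 to 74.5 in hepatocytes and from 0.73 to 342 in biliary cells, and its difference was not called (-2.16 ± 0.72, adjusted p = 0.0696). Leaving out 1 library at a time, 5 to 7 members responded more in biliary cells, and 10 without DDC hepatocyte replicate 1. Summed neutrophil markers ran from 2.54 to 3.54 in untreated and 23.8 to 33.1 in DDC biliary cells, and macrophage markers from 86.3 to 122 and 85.3 to 190.4. Of 11 macrophage markers tested, 1 rose and 1 fell in biliary cells. The part of these other cells was not tested. The response of matrix proteases and inhibitors was lower in hepatocytes for 6 of 16 and higher for 1, and that of TGF-beta pathway genes lower for 6 and higher for 3 of 21. With a pseudocount of 0.1 the protease list had 3 lower and 3 higher, and its median difference went from -0.84 to 0.02. For the TGF-beta list a pseudocount of 5 gave 3 lower and 1 higher. The chemokine list had 10 lower after quantile normalization and 11 with a pseudocount of 5.

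For the lists below, the share of all genes tested with a higher response in hepatocytes was 4.94%, and with a lower one 3.46%. The response of biliary markers was higher in hepatocytes for 9 of 24 and lower for 3, and lower for 1 without untreated biliary replicate 1. Among them Sox9, Spp1 and Prom1 rose in hepatocytes only. Cilium and polycystin genes were higher for 5 of 19 and lower for 0, with Bicc1, Glis2 and Ift57 rising in hepatocytes only. The count was 3 in TPM as deposited, where Glis2 and Ift57 were not called, 2 after quantile normalization and 1 with a pseudocount of 5. Biliary markers were 13 higher and 1 lower with a pseudocount of 0.1, 4 and 4 with a pseudocount of 5, and 6 and 3 in TPM as deposited. Genes of tetraspanins and lysosomes were higher for 5 of 21 and lower for 0, with a median difference of only 0.20 over the list. They were led by Cd63, Mfge8 and Cd9, a tetraspanin that went from 37 ± 7.36 to 305 ± 102 in hepatocytes. S100 proteins and annexins were higher for 6 of 18 and lower for 2, and basement membrane and integrin genes higher for 6 and lower for 5 of 20. The latter were 3 higher and 6 lower after quantile normalization, and 2 and 5 with a pseudocount of 5.

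In the limma test none of 20 plasma proteins, 20 urea cycle and amino acid genes, 19 xenobiotic P450 enzymes, 20 glutathione S-transferases, 20 fatty acid oxidation genes and 21 cholesterol synthesis genes differed between the responses. At an unadjusted p under 0.05 those lists had 1, 0, 0, 1, 1 and 0 members, against 25.2% of all genes tested. Other metabolic lists held calls. For comparison, 4.94% of all genes tested had a higher response in hepatocytes and 3.46% a lower one. A count of 1 in these lists is near those shares. Gluconeogenesis and glycogen genes had a higher response in hepatocytes for 3 of 15 and a lower one for 0; Slc2a2 and Ppargc1a, a co-activator of gluconeogenesis, fell in biliary cells only, and Gpt2, an alanine aminotransferase, had neither response called. Genes of the growth hormone and STAT5 axis were higher for 1 of 16, the STAT5 target Cish, and lower for 3, Elovl3, Hsd3b5 and Bcl6, all of which fell in both cell types. Lipogenesis had 1 higher of 17 (Scd2), bile acid synthesis and transport 1 of 18 (Abcc4, which rose in both) and glycolytic isoforms 2 of 15 (Pkm and Pfkp), with 0 lower in each. The difference of Pkm was no longer called under 16 of 29 alternatives. The median response of urea cycle and amino acid genes was -0.87 in hepatocyte and -1.04 in biliary libraries. Alb, at 22282 ± 2980.0 in untreated and 14013 ± 7347 in DDC biliary cells, had overlapping values in those groups, and the part of hepatocyte RNA in these biliary values was not tested.

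Cells labelled reprogrammed did not enter the contrast, although their libraries share in the estimate of spread. For genes that rose in hepatocytes only their median was 21.9 scaled TPM, against 9.74 in DDC hepatocytes and 23.1 in DDC biliary cells. For genes that rose in biliary cells only it was 4.48, between 0.147 and 7.25. Cxcl5 was at 102, 101 and 44.8 in the reprogrammed libraries, Serpine2 at 31.2, 22.9 and 26.3 and Cd63 at 624, 376 and 520.4. Genes that fell in biliary cells only had a median of 2.49 there.

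**Figure D5:**
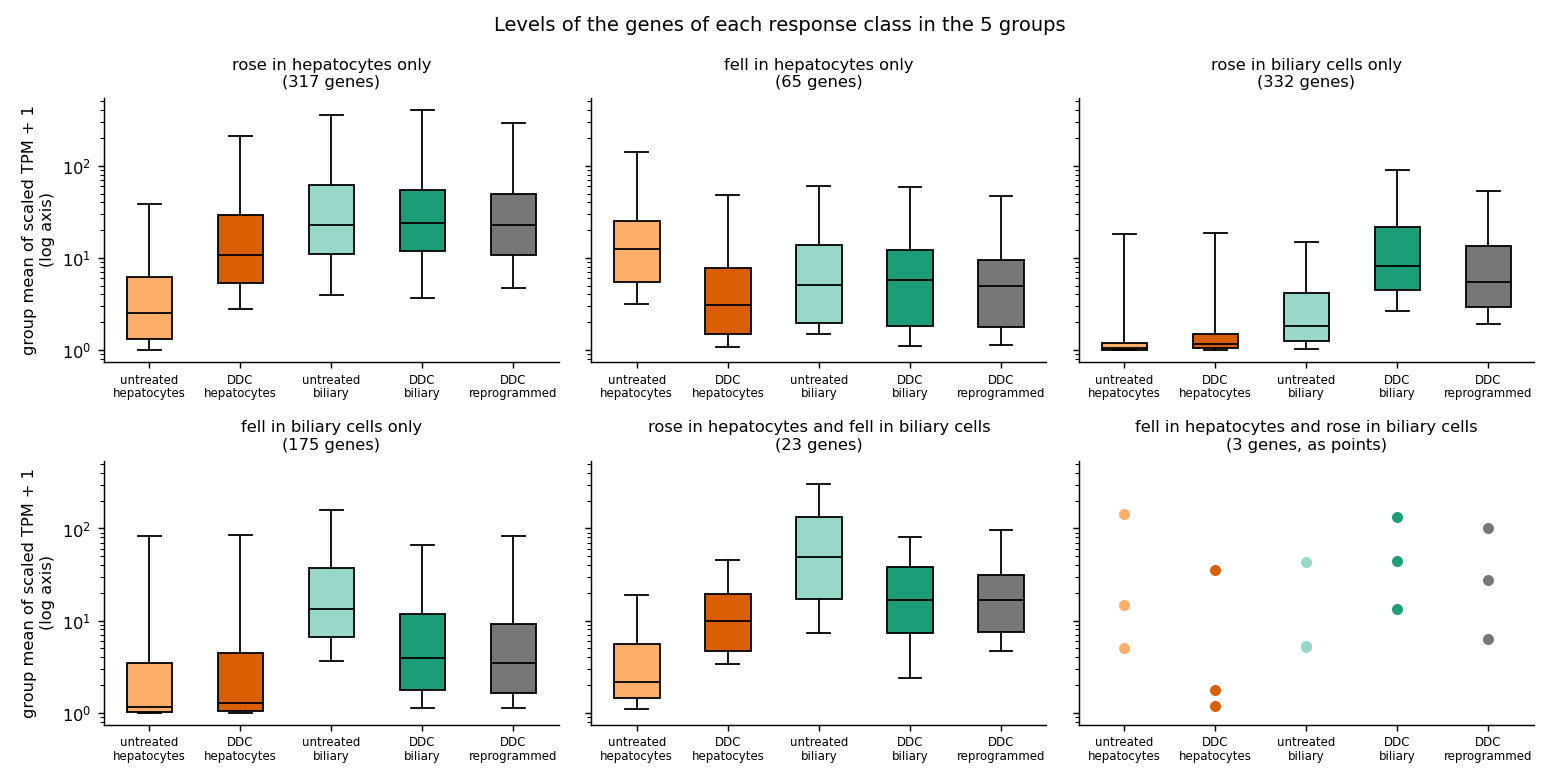
Group means of scaled TPM plus 1 (log axis) of the genes in each of the 6 classes, in the 5 groups; boxes span the quartiles with the median as a line, whiskers the 5th to 95th percentiles, and the class of 3 genes is drawn as points. Genes that rose in hepatocytes only start at a median of 1.49 scaled TPM and end at 9.74, below the 23.1 of DDC biliary cells.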

How the data were processed

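RNA-seq of sorted mouse liver cells was deposited as 1 table of gene-level TPM for 15 libraries, 3 in each of 5 groups. TPM were computed by the authors with Salmon for mm10, per the submitters' processing notes; no version of Salmon is given in the sources used here. TPM keep no read depth, so no counting error can be given and no count test was run.

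Genes with a TPM of at least 1 in at least 3 of 15 libraries were kept (13905 of 24493). Libraries were scaled by the median ratio to the geometric mean over 11924 genes above 0 in every library. Log2(scaled TPM + 1) was fitted with limma 3.58.1 (R 4.3.3) with a mean-variance trend, with 5 group means in 1 fit, and the difference between the responses was tested as a contrast. Fold changes on this scale understate the changes of low genes. A gene was called at a difference of at least 1 with an adjusted p (Benjamini-Hochberg, over all genes) under 0.05.

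Named genes were the 8 (classes of 1 cell type) or 6 (opposite classes) largest differences among protein-coding genes at 10 scaled TPM or more without overlap, up to 3 genes from each of 43 lists by the same conditions, Cd63, Mfge8, Serpine2 and Cxcl5, and 8 checks of the labels; a few of these genes are not reported here. The members and lists were chosen with earlier results of these data known. Genes outside this rule that are named (such as Gm9855, Ttc39b, Ptpn14, Lrmda, Cldn4, Elf3, Onecut2, Krt7, Alas2, Hba-a1, Ppargc1a, Gpt2, Elovl3, Hsd3b5, Bcl6, Abcc4, Pfkp, Rgs5, Dcn, Ctgf, Fjx1, Axl, Fos, Jun, Nfkbia, Ccl2 and Upp1) were chosen after their values were seen. Gene positions come from GENCODE M21 (GRCm38) and upstream sequences from RefSeq, which had an entry for 10837 of the 13905 genes. On simulated data for this contrast with 13905 genes, 84 of 100 genes changed by 2 and 96 of 100 changed by 3 on the log2 scale were called, with 3 false calls. Alternatives covered scaling, pseudocount, filter, variance model, libraries in the fit, replicate block, threshold, protein-coding genes alone, and leaving out each library.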

Additional observations from a re-analysis of the deposited data

Results flagged for a closer look

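Each value here was singled out because the response to DDC differed between hepatocytes and biliary cells by the test of the difference itself. The response was higher in hepatocytes for 687 genes and lower for 481. The classes held 317 genes that rose and 65 that fell in hepatocytes only, 332 that rose and 175 that fell in biliary cells only, 23 that rose in hepatocytes and fell in biliary cells, and 3 that did the reverse. The numbers after the gene names below are differences, hepatocyte response minus biliary response, in log2(scaled TPM + 1). Epcam (0.62), Krt19 (0.63) and Alb (0.52), checked as markers, did not reach a difference of 1.

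Genes that rose in hepatocytes only were Cd63 (7.09), Mfge8 (6.22), Spp1 (6.08), Id1 (5.96), Anxa2 (5.56), Prom1 (5.32), Wfdc3 (5.24), Serpinb6a (4.92) and Hes1 (4.07). They were followed by Bicc1 (3.60), Anxa5 (3.44), Klf6 (3.22), Sox4 (3.04), Ccnd1 (2.87), Hbegf (2.67), Scd2 (2.56), Cish (2.23) and Ajuba (2.11). Next came Tmsb10 (2.11), Cd9 (2.09), Btc (1.91), Amotl2 (1.89), Bgn (1.85), Sox9 (1.73), Krt8 (1.59), Cp (1.44) and Krt18 (1.40). Smaller differences were those of Cdh1 (1.33), Glis2 (1.28), Ift57 (1.25), Sparc (1.18), Pkm (1.10) and Slc48a1 (1.09).

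Those that fell in hepatocytes only were Susd4 (-3.29), Nrep (-2.93), Hspa1a (-2.88), Mup8 (-2.78), Tsc22d1 (-2.57), Me1 (-2.51), Mapk15 (-2.21), Slc25a45 (-2.13) and Tfrc (-1.87).

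In biliary cells only, rises were seen for Cxcl5 (-5.91), Ctse (-5.32), Plau (-4.89), Ltbp2 (-4.82), Gabrp (-4.75), Ccl20 (-4.63) and Tnf (-3.55). They were followed by Cdkn2a (-3.27), Lamb3 (-3.25), Anxa1 (-3.21), Adam8 (-3.10), Cdkn2b (-2.62), Itgb6 (-2.21) and Thbs1 (-2.04).

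Falls in biliary cells only were seen for Msmp (6.07), Lamc3 (4.21), C2cd4b (3.76), Smim5 (3.63), Atoh8 (3.55), Fhl1 (3.38), Angptl1 (3.29), Reln (3.04) and Ltbp4 (2.50). They were followed by Slc2a2 (2.11), Ifit2 (1.80), Btg2 (1.66), Prox1 (1.45) and Ppp1r15a (1.26).

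Opposite changes, up in hepatocytes, were seen for Prelp (5.27), Fmo2 (5.14), Id3 (4.73), Abcb1a (4.61), Itih5 (4.14), Cavin2 (4.03), Cyr61 (3.98), Atf3 (3.88) and Lamb2 (3.29). They were followed by Fosb (3.20).

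Opposite changes, down in hepatocytes, were seen for Serpine2 (-6.13), Ddit4 (-3.87) and Lama3 (-3.44).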

How the results depend on the processing

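Of 236 counts recomputed under 30 alternatives, 212 stayed within 1.5 times the reported count. No named gene with a called difference changed sign. Among the 6 named genes without a call, the difference ran from -0.28 to 2.27 for Epcam and from -0.07 to 2.19 for Krt19. Epcam gained a call with a pseudocount of 0.1 and with the adjusted p alone. A count of like size need not hold the same genes. At the lowest, with a pseudocount of 5, 113 of the 317 and 143 of the 332 genes that rose in hepatocytes or biliary cells only kept their class. So did 85 of the 175 that fell in biliary cells only, and, in TPM as deposited, 18 of the 65 that fell in hepatocytes only. With only the 4 groups in the fit 301, 324, 169 and 59 kept it. Median gene changes in TPM as deposited were 0.17 in hepatocytes and 0.07 in biliary cells, and the difference 0.13. Genes that fell in hepatocytes only numbered 20 in TPM as deposited, 37 after quantile normalization and 39 with a filter of 5 TPM; 176 rose in hepatocytes only after quantile normalization. With a pseudocount of 0.1, 541 rose in hepatocytes only, and 37 and 11 moved in opposite directions (up and down in hepatocytes). With a pseudocount of 5, 322 responses were higher and 260 lower in hepatocytes, 124 genes rose and 37 fell in hepatocytes only, 170 rose and 98 fell in biliary cells only, and 11 rose in hepatocytes and fell in biliary cells. With the adjusted p alone, 777 responses were lower, 488 genes rose and 187 fell in hepatocytes only, 309 fell in biliary cells only, and 93 and 29 moved in opposite directions. Fewer or more genes pass by construction when the pseudocount or the threshold changes; the cause of the other shifts was not tested.

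Leaving out 1 library at a time, higher responses in hepatocytes numbered 557 to 729 and lower ones 402 to 525. Rises and falls in hepatocytes only numbered 268 to 351 and 48 to 86, those in biliary cells only 271 to 374 and 135 to 203, and the opposite classes 13 to 27 and 2 to 5. Replicate numbers are shared between groups, but same-numbered hepatocyte and biliary libraries correlated at 0.150, 0.171 and 0.236 (untreated) and 0.318, 0.319 and 0.0436 (DDC) in their deviations. Each of these exceeds every value for different numbers (-0.320 to 0.0304), a hint of pairing in the data, but 1 DDC pair is under 0.1 and no label says that a number marks a shared mouse or batch, so the main counts have no block. With a replicate block within treatment 826 responses were higher and 572 lower, the classes held 366, 92, 356 and 200 genes, and the opposite ones 27 and 4. With a block over all samples these were 734, 521, 339, 76, 341, 180, 24 and 4. Of 85 named genes with a called difference 66 kept it under every setting run, 29 for each except Susd4 with 28, and Pkm (lost in 16), Sparc (11), Prox1 (9), Hspa1a (8) and Cdh1 (7) lost it most often. Depth is unknown, and 3 libraries a group limit the precision.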
